A study of Mus musculus with 16 samples.

Results

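Nodal and BMP pathway genes were followed across the 16 mouse pluripotent lines of the study. The genes were chosen by name, as the rows of the deposited expression table for Nodal, Lefty1, Lefty2, Tdgf1, Smad7, Bmp4, Id1, Id2 and Id3, which are 9 of the 22552 genes in the table. All 9 were found, and all 9 were above the filter on low values described below. RNA from the lines was sequenced with 1 library per line, and every line came from adipocyte progenitor cells (APCs) of strain 129-M2rtTA. The APCs were taken from mice made wholly of primary iPSCs, so that all 4 groups carried the same doxycycline-inducible reprogramming transgenes and the Rosa26-M2rtTA transactivator. AN lines were nuclear transfer embryonic stem cells (ntESCs), made by placing APC nuclei in enucleated oocytes and plating the blastocysts on mouse embryonic fibroblasts. AI lines were induced pluripotent stem cells (iPSCs), made from the same APCs by adding doxycycline. Lines able to form whole pups in tetraploid blastocysts were called fully reprogrammed (F) and the others partially reprogrammed (P). The 4 AN F lines were AN1, AN9, AN15 and AN20, and the 5 AN P lines were AN2, AN3, AN5, AN6 and AN7. The 4 AI F lines were AI3, AI7, AI10 and GS32, and the 3 AI P lines were AI9, GS4 and GS9. The lines were grown in serum with LIF and sampled at passage 5 to 7, except GS32 at passage 13 and GS4 at passage 17. GS4, GS9 and GS32 were iPSC lines identified in earlier work, and 2 of the 3 AI P lines were of this kind, so that earlier origin and the P group are largely mixed in AI.

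Nodal is a secreted ligand of the TGF-β superfamily that signals through activin receptors and the effectors SMAD2 and SMAD3, and it needs the co-receptor Cripto, the product of Tdgf1. Lefty1 and Lefty2 are secreted antagonists of Nodal that are themselves induced by it, and Smad7 encodes an intracellular inhibitor of the receptors. Bmp4 is the ligand of the BMP branch, which signals through SMAD1 and SMAD5 and induces Id1, Id2 and Id3, inhibitors of basic helix-loop-helix factors. In mouse embryonic stem cells grown with serum and LIF, BMP and Id activity is known to restrain differentiation, while Nodal keeps its own antagonists expressed.

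Values are FPKM, fragments scaled by transcript length and by mapped reads, so levels of different genes can be set side by side per length. Read counts were not analysed here, and the depth behind each value is unknown. Judged by the spacing of low FPKM values, the depth of the lines relative to AN1 lay between 0.958 and 1.26. Any 2 lines had a Pearson's r of 0.929 to 0.978 on the log2(FPKM + 1) scale, and AN6 and GS4 had the lowest mean r with the other lines, 0.950 and 0.951. Of the pluripotency markers, 9 were in the table and none was under 1 FPKM in any group, with Pou5f1 between 615 and 1222 FPKM. Fibroblast markers were found in every line, with a summed level of 868 to 1591 FPKM in AN F, 1073 to 2118 in AN P, 1121 to 2166 in AI F and 503 to 1868 in AI P, and GS4 and GS9 held the lowest sums. No sort was made, and in such bulk libraries fewer cells of a type and less RNA per cell cannot be told apart.

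The 9 genes spanned a wide range of levels. Tdgf1 was highest, with a mean of 641 FPKM over the 16 lines, and only 0.798% of the genes in the table were above it. Lefty1 followed with 164 FPKM, Id3 with 60.9 and Lefty2 with 60.7. The ligand Nodal had 24.6 FPKM, Id1 23.2, Smad7 20.1, Bmp4 17.0 and Id2 15.6. Tdgf1 was above Lefty1, Lefty1 above Id3 and Lefty2 above Nodal in 16 of 16 lines. The order of the other neighbours was not held by all lines, since Id3 was above Lefty2 in 9 lines, Nodal above Id1 in 10, Id1 above Smad7 in 9, Smad7 above Bmp4 in 13 and Bmp4 above Id2 in 10. Each of the 9 genes varied more between lines than the typical gene of like level. The SD over lines of log2(FPKM + 1) was 0.53 for Id3, against a median of 0.20 for the 2128 genes within a factor of 2 of its mean, of which 5.26% had a larger SD. For Tdgf1, the least extreme, the SD was 0.34 against 0.24, and 23.6% of like genes had a larger SD.

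**Figure D1:**
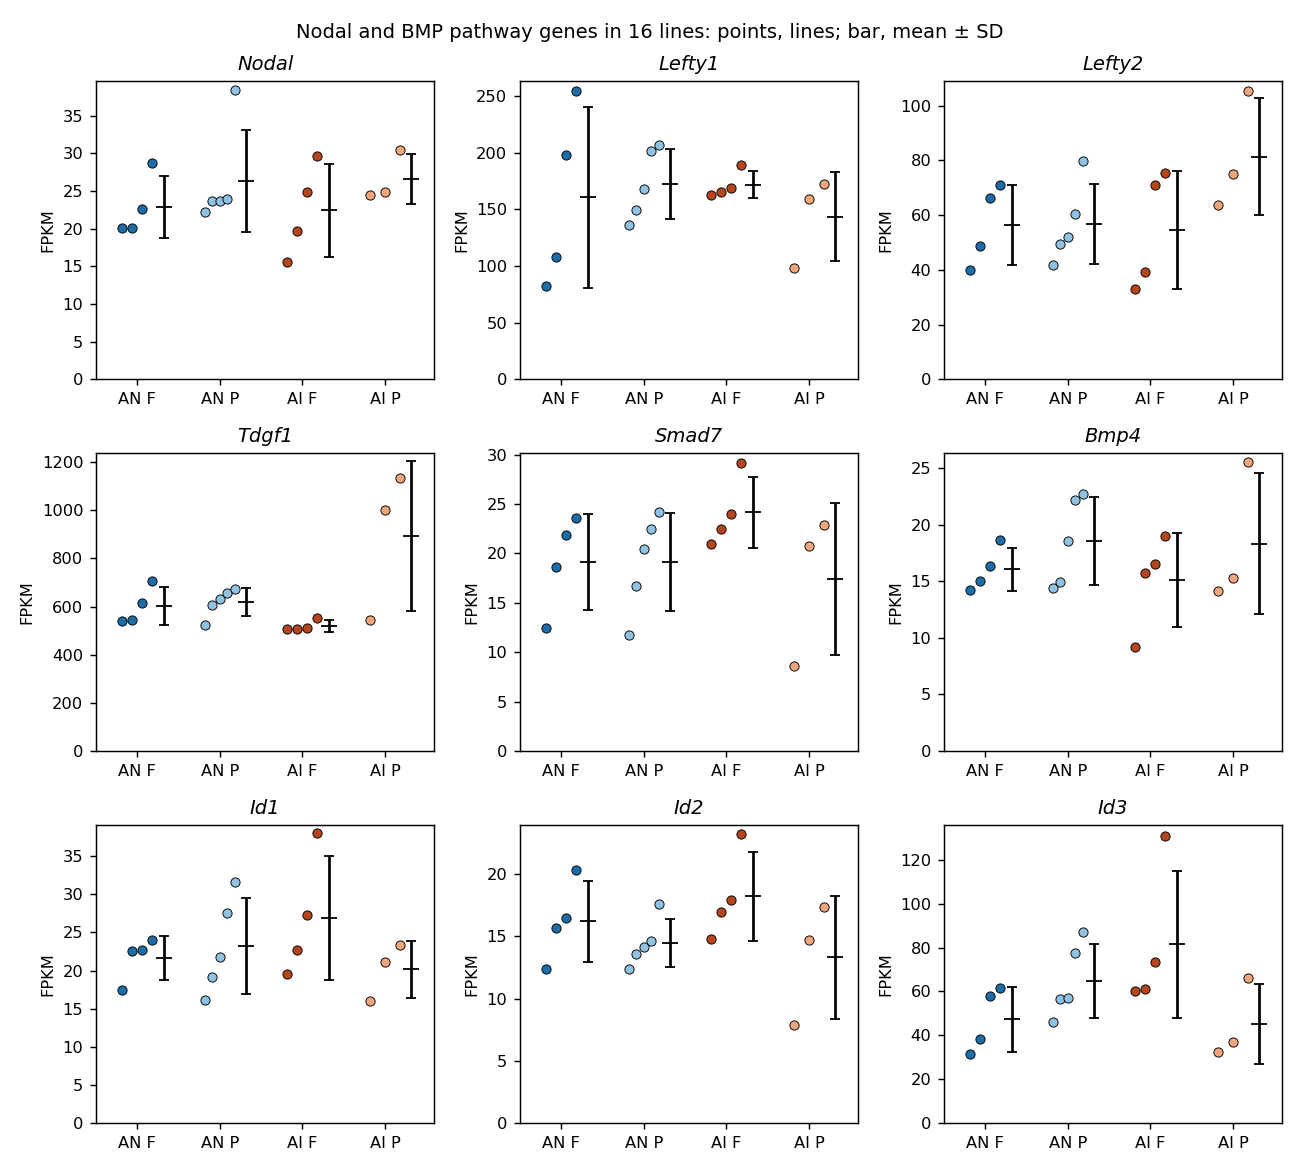
FPKM of the 9 genes (y axis, linear) in each line by group (x axis, in order 4, 5, 4 and 3 lines of AN F, AN P, AI F, AI P). Points are lines, and the bar at the right of each group is the mean ± SD. The groups overlapped for every gene, and 2 AI P lines stood above all others for Tdgf1, at 1001 and 1134 FPKM.

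Nodal, the ligand itself (chr10:60880720-60888086 on the forward strand, mm9, 3 exons), ranged from 15.5 to 38.4 FPKM over the 16 lines. In AN F it was 22.6 FPKM in AN1, 20.1 in AN9, 28.7 in AN15 and 20.1 in AN20, and in AN P 22.2 in AN2, 23.6 in AN3, 23.7 in AN5, 38.4 in AN6 and 23.9 in AN7. The AI F lines had 15.5 in AI3, 24.9 in AI7, 29.7 in AI10 and 19.7 in GS32, and in AI P 24.8 in AI9, 24.5 in GS4 and 30.4 in GS9. AN6 was the highest of all lines and AI3 the lowest, and the groups overlapped. The mean was 22.9 ± 4.06 in AN F (SD, n = 4) and 26.4 ± 6.78 in AN P (SD, n = 5), a log2 difference of -0.18 (95% interval -0.56 to 0.20). In AI, F and P means of 22.5 ± 6.17 (SD, n = 4) and 26.6 ± 3.33 (SD, n = 3) gave a log2 difference of -0.27 (95% interval -0.77 to 0.24). Both 95% intervals covered 0.

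The genes of the 2 Nodal antagonists both lie on chromosome 1, Lefty2 at chr1:182823239-182829234 and Lefty1 at chr1:182865153-182868531 (mm9, both forward strand), 35919 bases apart. Their coding sequences have 1107 bases each and were identical at 1017 of them (91.9%). Of the 50-base windows of the Lefty1 transcript, 17.9% were also in the Lefty2 transcript, and 11.6% of the windows of Lefty2 were in Lefty1. How the authors' programs shared out such reads is not given in the sources used here, so the values of both genes carry that uncertainty.

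Lefty1 ranged widely in AN F. It was 254 FPKM in AN1, 107 in AN9, 198 in AN15 and 82.7 in AN20, against 150 in AN2, 168 in AN3, 207 in AN5, 202 in AN6 and 136 in AN7. AN1 was the highest and AN20 the lowest of all 16 lines, so that AN P lay inside the range of AN F. In AI F Lefty1 was 163 in AI3, 189 in AI7, 169 in AI10 and 166 in GS32, and in AI P 172 in AI9, 159 in GS4 and 98.5 in GS9. The log2 difference between F and P was -0.22 (95% interval -0.92 to 0.47) in AN and 0.30 (95% interval -0.16 to 0.76) in AI. Without GS4 and GS9, which leaves AI9 alone in AI P, the AI difference was -0.0077.

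Lefty2 was 48.8 FPKM in AN1, 66.1 in AN9, 71.0 in AN15 and 39.9 in AN20, and in AN P 52.2 in AN2, 60.4 in AN3, 49.5 in AN5, 79.7 in AN6 and 41.7 in AN7. In AI F it was 33.02 in AI3, 75.4 in AI7, 70.8 in AI10 and 39.3 in GS32, and in AI P 63.8 in AI9, 105 in GS4 and 75.0 in GS9. The AI F lines fell in 2 low and 2 high values, and GS4 was the highest of the 16 lines. The log2 difference between F and P was -0.01 (95% interval -0.49 to 0.47) in AN and -0.62 (95% interval -1.396 to 0.15) in AI, and both pairs of groups overlapped. Lefty1 and Lefty2 did not rank the lines alike, with Pearson's r = 0.12 over the 16 lines (permutation p = 0.656, adjusted p = 0.787 over 36 pairs) and Spearman's rho = 0.171 (permutation p = 0.521, adjusted p = 0.646). Their r was 0.37 within the 9 AN lines, -0.15 within the 7 AI lines and 0.040 without AN20 and GS9, the lines farthest from the median of Lefty1.

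Tdgf1, the co-receptor gene (chr9:110842114-110848662 on the reverse strand, mm9), lay between 506 and 707 FPKM in AN F, AN P and AI F, and ranged more widely in AI P. It was 545 FPKM in AN1, 707 in AN9, 615 in AN15 and 539.6 in AN20, and in AN P 632 in AN2, 525 in AN3, 672 in AN5, 656 in AN6 and 607 in AN7. The AI F lines had 506 in AI3, 555 in AI7, 508 in AI10 and 509 in GS32, and in AI P 543 in AI9, 1001 in GS4 and 1134 in GS9. GS4 and GS9 stood above all other lines, while AI9 lay within AI F. The mean was 519 ± 23.4 FPKM in AI F (SD, n = 4) and 893 ± 310.3 in AI P (SD, n = 3), a log2 difference of -0.71 (95% interval -1.30 to -0.12, unadjusted p = 0.0245, adjusted p = 0.521 in limma over all genes tested). An exact two-sided permutation test over the 35 splits gave p = 0.114, and the smallest p that this design allows is 0.0571. Without GS4 and GS9, which leaves AI9 alone in AI P, the log2 difference was -0.06. In AN the means were 602 ± 78.2 (SD, n = 4) and 618 ± 57.9 (SD, n = 5), a log2 difference of -0.04 (95% interval -0.28 to 0.20).

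Part of the Tdgf1 signal could come from copies of the gene. Of the 50-base windows of its transcript, 27.5% were also found elsewhere in mm9. The closest copy, at chr16:3730260-3731268, was 96.7% identical over 1009 aligned bases and held no annotated gene. Others were Gm13455 on chromosome 2 (89.9% over 932 bases) and Tdgf1-ps2 on chromosome 17 (90.3% over 433 bases). Whether reads of these copies differed between lines was not tested.

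Smad7, which encodes the inhibitory SMAD, has its gene on chromosome 18. In AN F it was 23.6 FPKM in AN1, 12.5 in AN9, 21.9 in AN15 and 18.6 in AN20, and in AN P 22.5 in AN2, 24.2 in AN3, 20.5 in AN5, 11.8 in AN6 and 16.7 in AN7. Smad7 in AI F was 29.1 in AI3, 22.4 in AI7, 21.0 in AI10 and 24.01 in GS32, and in AI P 20.8 in AI9, 22.8 in GS4 and 8.60 in GS9. AI3 was the highest and GS9 the lowest of all lines. The log2 difference between F and P was 0.0031 (95% interval -0.51 to 0.52) in AN and 0.55 (95% interval -0.19 to 1.28) in AI. Without GS9 the AI difference was 0.13.

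Bmp4, the BMP ligand (chr14:47003195-47010344 on the reverse strand, mm9), was 16.4 FPKM in AN1, 14.2 in AN9, 18.6 in AN15 and 15.0 in AN20, and in AN P 18.5 in AN2, 22.7 in AN3, 14.4 in AN5, 22.2 in AN6 and 14.9 in AN7. Bmp4 in AI F was 9.19 in AI3, 19.0 in AI7, 15.7 in AI10 and 16.5 in GS32, and in AI P 15.3 in AI9, 14.2 in GS4 and 25.5 in GS9. AI3 was the lowest and GS9 the highest line, the reverse of Smad7 for the same 2 lines. The log2 difference between F and P was -0.18 (95% interval -0.52 to 0.16) in AN and -0.26 (95% interval -0.93 to 0.40) in AI. Bmp4 overlaps the annotated genes Gm15217 and Gm15222, and the library kit named in the labels does not mark strand, so reads in the overlap cannot be told apart.

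The Id genes differed in how far they varied. Id3 (chr4:135699412-135701670 on the forward strand, mm9) was 58.1 FPKM in AN1, 38.1 in AN9, 61.8 in AN15 and 31.5 in AN20, and in AN P 56.4 in AN2, 77.3 in AN3, 46.2 in AN5, 86.9 in AN6 and 56.8 in AN7. In AI F it was 60.02 in AI3, 73.5 in AI7, 130.9 in AI10 and 61.3 in GS32, and in AI P 65.9 in AI9, 37.1 in GS4 and 32.5 in GS9. AI10 was the highest of all lines, and GS4, GS9, AN9 and AN20 were the lowest. The mean was 47.4 ± 14.8 in AN F (SD, n = 4) and 64.7 ± 16.8 in AN P (SD, n = 5), a log2 difference of -0.46 (95% interval -0.998 to 0.081). In AI the order of the means was the other way, with 81.4 ± 33.5 in AI F (SD, n = 4) and 45.2 ± 18.1 in AI P (SD, n = 3), a log2 difference of 0.83 (95% interval 0.033 to 1.62, unadjusted p = 0.0432, adjusted p = 0.521 in limma). Both pairs of groups overlapped. Without GS4 and GS9, which leaves AI9 alone in AI P, the AI difference was 0.22.

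The difference between these 2 effects of Id3, AI minus AN, was 1.29 on the log2 scale (95% interval 0.38 to 2.19). Limma gave an unadjusted p = 0.0084 and an adjusted p = 0.290. The exact two-sided permutation test, which exchanged F and P within AN and within AI (4410 splits), gave p = 0.019 (0.686 after adjustment over the 36 exact tests). Without GS4 and GS9 the value was 0.68 (limma adjusted p = 0.994), and 0.0531% of all genes passed. Leaving out AI9 moved it the other way, to 1.59, with a limma adjusted p of 0.047, and Tdgf1 then reached -0.99 with a limma adjusted p of 0.031. Over all alternatives the adjusted p ranged from 0.047 to 0.994 for Id3 and from 0.031 to 0.997 for Tdgf1. Without AI9, 651 of 13185 genes (4.94%) passed the same test, so these calls rested on GS4 and GS9 standing alone for AI P.

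Id1 (chr2:152561987-152563146 on the forward strand, mm9) was 22.6 FPKM in AN1, 22.6 in AN9, 24.1 in AN15 and 17.4 in AN20, and in AN P 21.8 in AN2, 27.6 in AN3, 16.1 in AN5, 31.6 in AN6 and 19.1 in AN7. In AI F it was 22.7 in AI3, 27.2 in AI7, 38.0 in AI10 and 19.6 in GS32, and in AI P 23.3 in AI9, 21.1 in GS4 and 16.1 in GS9. As for Id3, AI10 was the highest line. The log2 difference between F and P was -0.07 (95% interval -0.49 to 0.35) in AN and 0.37 (95% interval -0.18 to 0.92) in AI, with overlapping groups.

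Id2 (chr12:25778666-25780957 on the reverse strand, mm9) was 20.3 FPKM in AN1, 16.5 in AN9, 12.4 in AN15 and 15.7 in AN20, and in AN P 17.6 in AN2, 14.7 in AN3, 12.4 in AN5, 14.1 in AN6 and 13.6 in AN7. In AI F it was 17.9 in AI3, 14.8 in AI7, 23.2 in AI10 and 16.9 in GS32, and in AI P 14.7 in AI9, 7.84 in GS4 and 17.4 in GS9. GS4 alone was under 12 FPKM. The log2 difference between F and P was 0.14 (95% interval -0.17 to 0.46) in AN and 0.47 (95% interval -0.15 to 1.10) in AI, the latter 0.16 without GS4.

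Promoter sequence is shown for the ligands Nodal and Bmp4, and for Tdgf1 and Id3, the genes with the smallest p between AI F and AI P. The RefSeq promoter table (GRCm38.p6) matched 5 of the 9 genes, these and Id2. Lefty1, Lefty2, Smad7 and Id1 were not in it. Each sequence is the 250 bases before the start of the gene, 5′ to 3′ on the strand of the gene. Capitals mark the motifs searched on both strands, which were the SMAD4 motif CAGAC, the GC-rich SMAD motif GGCGCC and the FOXH1 motif AATNNACA.
Nodal, chr10:61417722-61417971, forward strand: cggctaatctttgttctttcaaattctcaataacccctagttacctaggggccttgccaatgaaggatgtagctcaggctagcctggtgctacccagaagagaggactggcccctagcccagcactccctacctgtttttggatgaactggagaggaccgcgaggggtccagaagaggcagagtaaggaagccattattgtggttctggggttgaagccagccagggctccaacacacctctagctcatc
Bmp4, chr14:46390670-46390919, reverse strand: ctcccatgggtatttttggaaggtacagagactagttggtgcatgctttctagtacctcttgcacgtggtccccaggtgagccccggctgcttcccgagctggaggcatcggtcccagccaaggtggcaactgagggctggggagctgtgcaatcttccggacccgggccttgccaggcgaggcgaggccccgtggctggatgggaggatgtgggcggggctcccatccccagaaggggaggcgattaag
Tdgf1, chr9:110946159-110946408, reverse strand: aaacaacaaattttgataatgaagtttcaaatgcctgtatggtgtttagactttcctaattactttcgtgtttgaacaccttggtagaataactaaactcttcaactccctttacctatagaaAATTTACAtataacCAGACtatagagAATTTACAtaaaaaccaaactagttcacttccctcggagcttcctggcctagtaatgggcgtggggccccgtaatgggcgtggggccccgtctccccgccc
Id3, chr4:136143572-136143821, forward strand: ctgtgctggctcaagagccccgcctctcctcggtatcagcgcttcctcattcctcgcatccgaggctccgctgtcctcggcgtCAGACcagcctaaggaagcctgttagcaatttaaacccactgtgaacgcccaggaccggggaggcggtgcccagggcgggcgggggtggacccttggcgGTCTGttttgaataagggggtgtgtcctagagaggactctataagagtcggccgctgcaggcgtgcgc
The Id3 sequence held 2 matches to CAGAC, 1 on each strand. The Tdgf1 sequence held 1 match to CAGAC between 2 matches to AATNNACA, none overlapping another. The Id2 sequence held 1 match to GGCGCC, and those of Nodal and Bmp4 held no match. Of the 27025 promoters in the table, 42.1% held CAGAC, 9.54% GGCGCC and 11.1% AATNNACA in the same window. A match describes letters and does not show that a factor bound there.

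Fully and partially reprogrammed lines were compared within each derivation, first the ntESCs and then the iPSCs. Between AN F and AN P, 0 of the 9 genes passed limma's test at an adjusted p under 0.05, as did 0 of the 13185 genes tested (0%), and 0 of the 9 had an unadjusted p under 0.05, against 6.01% of all genes. The log2 difference was below 0 for 7 of the 9 genes and above 0 for 2, where 46.2% of all genes were above 0. The median was -0.07 over the 9, against -0.01 over all genes tested. No gene of the 9 had groups that did not overlap, against 1.3% of all genes. Between AI F and AI P, 0 of the 9 and 0 of the 13185 (0%) passed the adjusted test. At an unadjusted p under 0.05, Id3 was above 0 (1 of 9, against 3.47% of all genes) and Tdgf1 below 0 (1 of 9, against 4.3%), together 2 of 9 against 7.77%. The log2 difference was above 0 for 5 genes (Lefty1, Smad7, Id1, Id2 and Id3), where 43.7% of all genes were above 0. It was below 0 for 4 (Nodal, Lefty2, Tdgf1 and Bmp4). The median was 0.30 over the 9, against -0.04 over all genes. Here again no gene of the 9 had groups without overlap, against 4.88% of all genes.

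**Figure D2:**
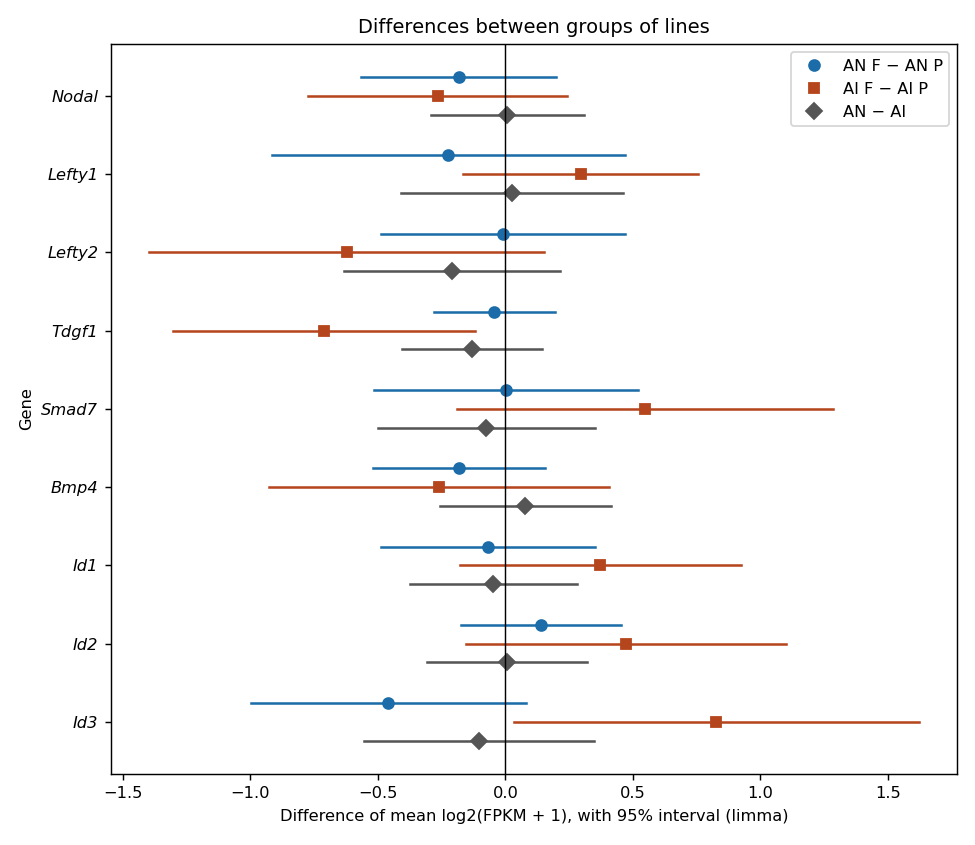
Differences of mean log2(FPKM + 1) with limma's 95% intervals (x axis) for the 9 genes (y axis), with AN F minus AN P as circles, AI F minus AI P as squares and AN minus AI as diamonds. All intervals of the AN F minus AN P and AN minus AI differences cover 0, and those of Tdgf1 and Id3 in AI do not (95% intervals -1.30 to -0.12 and 0.033 to 1.62, before any adjustment for the number of genes).

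Between the 9 ntESC and the 7 iPSC lines, with F and P weighted equally, none of the 9 genes and 0 of the 13185 (0%) passed, and 0 of the 9 had an unadjusted p under 0.05, against 3.52% of all genes. The difference was above 0 for 4 of the 9 (51.6% of all genes), and no gene of the 9 had groups without overlap (0.0228% of all genes). The largest of the differences was -0.21 for Lefty2 (95% interval -0.63 to 0.21). That of Nodal was 0.0075 (95% interval -0.29 to 0.31), that of Bmp4 0.079 (95% interval -0.26 to 0.41) and that of Id2 0.0054 (95% interval -0.31 to 0.32). In the test of the AI effect minus the AN effect, 0 of the 9 and 0 of the 13185 genes (0%) passed, and Id3 (above 0, against 8.3% of all genes) and Tdgf1 (below 0, against 8.34%) were again the 2 of 9 with an unadjusted p under 0.05, against 16.6% in both directions. This value was above 0 for 5 of the 9 and for 45.4% of all genes. Of the 36 exact permutation tests, 9 genes in 4 comparisons, that of Id3 described above was the only one with p under 0.05. The p-values measure the spread between lines, and nothing in the labels says that lines came from separate donor animals.

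Across the 16 lines, 3 of the 36 pairs of genes were correlated at an adjusted permutation p under 0.05 by Pearson's r and 2 by Spearman's rho. Id1 and Id3, targets of BMP, rose and fell together most closely (r = 0.861, permutation p = 8e-05, adjusted p = 0.00288, rho = 0.885, permutation p = 2e-05, adjusted p = 0.00072). Their r was 0.783 within AN, 0.916 within AI and 0.732 without AI10 and GS9, the lines farthest from the median of Id1. Id1 had no such relation with Id2 (r = 0.274, permutation p = 0.298, adjusted p = 0.429, rho = 0.094, permutation p = 0.728, adjusted p = 0.794, r = 0.092 in AN, 0.371 in AI and 0.085 without AI10 and GS9).

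Nodal and its antagonist Lefty2 were correlated as well (r = 0.706, permutation p = 0.00192, adjusted p = 0.0317, rho = 0.788, permutation p = 0.00046, adjusted p = 0.00828), with r = 0.669 within AN, 0.799 within AI and 0.595 without AN6 and AI3. Nodal and Lefty1 were not (r = 0.218, permutation p = 0.415, adjusted p = 0.575, rho = 0.318, permutation p = 0.229, adjusted p = 0.412), with r = 0.538 within AN, -0.372 within AI and 0.175 without AN6 and AI3. Nodal and Bmp4 passed by r (r = 0.713, permutation p = 0.00264, adjusted p = 0.0317) and not by rank (rho = 0.512, permutation p = 0.0458, adjusted p = 0.219). Their r fell to 0.452 without AN6 and AI3, the lines with the highest and the lowest Nodal. Within AN r was 0.640 and within AI 0.785.

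The r of Bmp4 with Id1 and Id3 had opposite signs within AN and within AI, while that with Id2 was near 0 in both (-0.073 and 0.075). Bmp4 and Id1 had r = 0.849 within AN and -0.272 within AI, and Bmp4 and Id3 had 0.847 and -0.252, and the difference between AN and AI was not tested. Over all 16 lines r was 0.133 for Id1 (permutation p = 0.625, adjusted p = 0.776, rho = 0.288, permutation p = 0.278, adjusted p = 0.455) and 0.112 for Id3 (permutation p = 0.685, adjusted p = 0.795, rho = 0.397, permutation p = 0.13, adjusted p = 0.368). Without AI3 and GS9, the lines with the lowest and the highest Bmp4, r was 0.542 for Id1 and 0.548 for Id3. No pair passed the adjusted threshold within AN, within AI or without the 2 farthest lines, where 9, 7 and 14 lines remained.

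**Figure D3:**
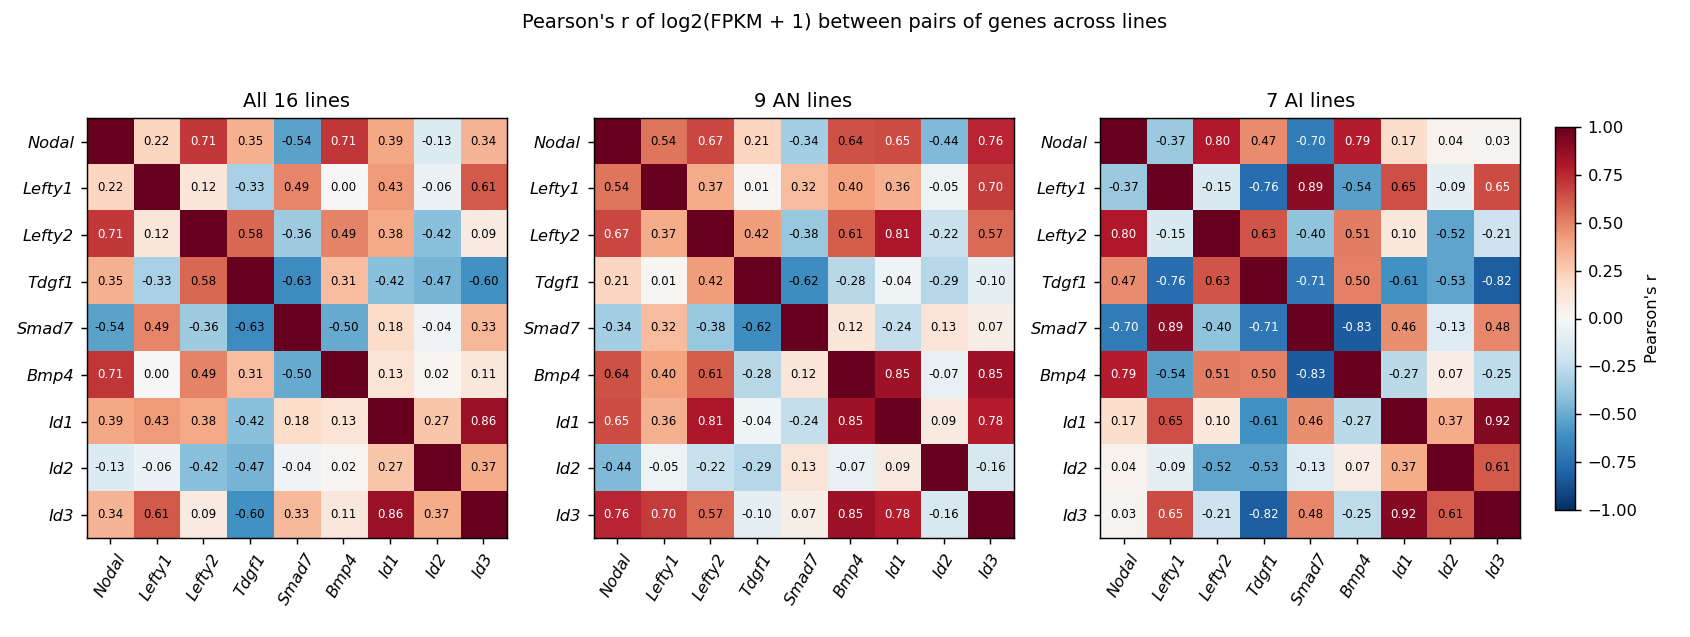
Pearson's r of log2(FPKM + 1) for each pair of the 9 genes, printed in each cell and coloured from -1 (blue) to 1 (red), over all 16 lines (left), the 9 AN lines (middle) and the 7 AI lines (right). Id1 and Id3 had r of 0.86, 0.78 and 0.92 in the 3 panels, while Bmp4 and Id3 had 0.11, 0.85 and -0.25.

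**Figure D4:**
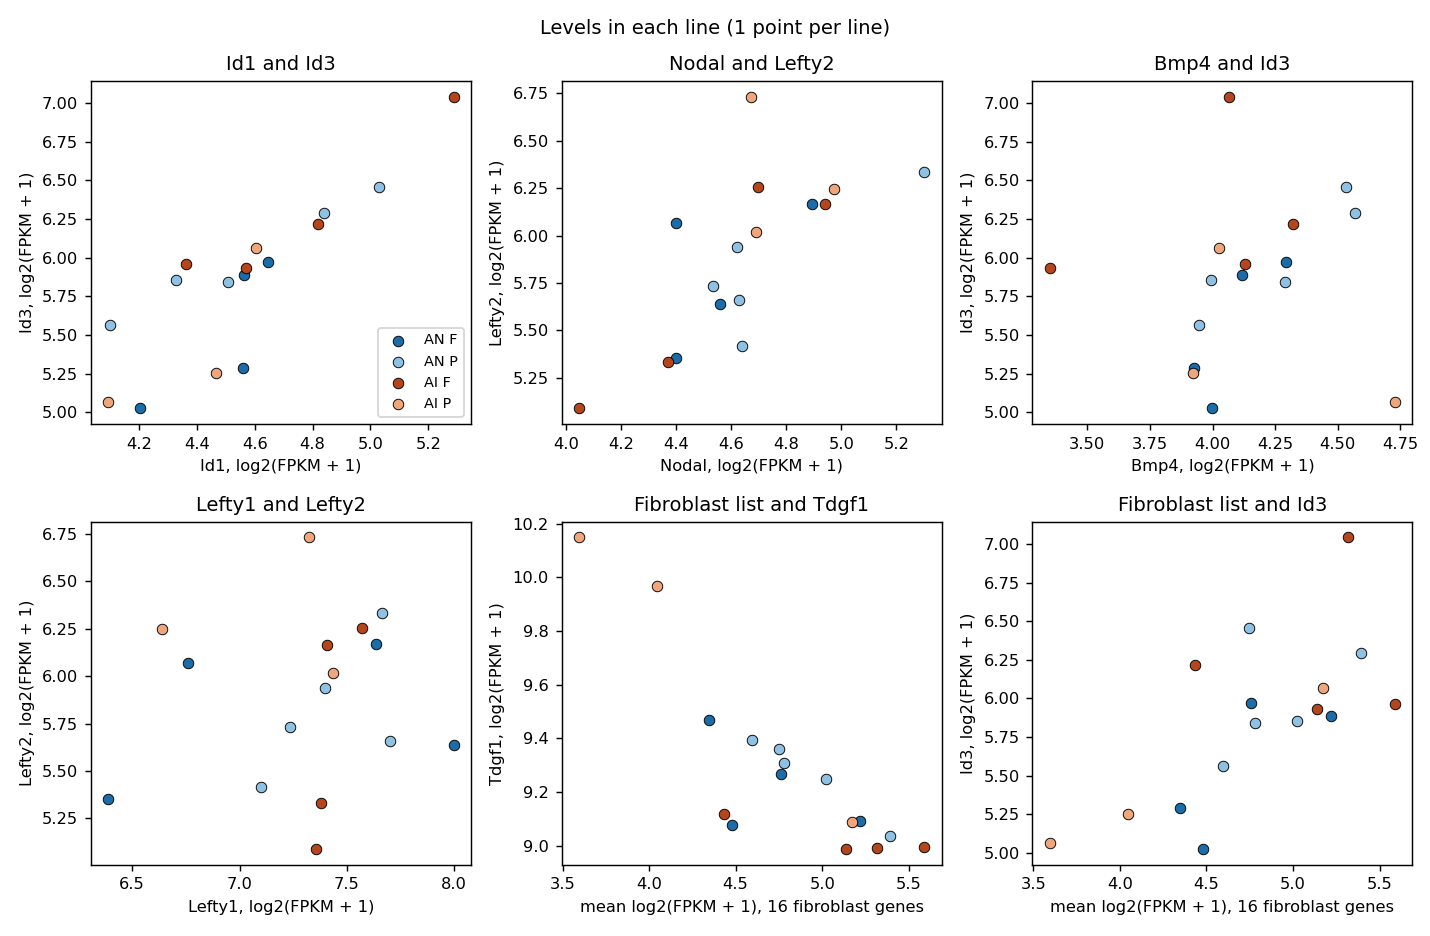
Levels in each line as log2(FPKM + 1), 1 point per line, coloured by group. The panels plot Id3 against Id1, Lefty2 against Nodal, Id3 against Bmp4, Lefty2 against Lefty1, and Tdgf1 and Id3 against the mean of 16 fibroblast markers. Tdgf1 fell along the fibroblast axis (r = -0.860), with GS4 and GS9 at the low fibroblast end, and Id3 rose along it (r = 0.682).

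The fibroblast markers moved with some of the genes. Over the 16 lines, Tdgf1 was lower where their mean log2 level was higher (r = -0.860, permutation p = 6e-05, adjusted p = 0.00168 over 63 relations, rho = -0.794, permutation p = 0.00048, adjusted p = 0.0151), with r = -0.662 within AN, -0.910 within AI and -0.763 without GS9 and GS32. Id3 was higher where they were higher (r = 0.682, permutation p = 0.00318, adjusted p = 0.0215, rho = 0.615, permutation p = 0.013, adjusted p = 0.063), with r = 0.670 within AN, 0.726 within AI and 0.664 without GS9 and GS32. For Nodal (r = -0.252, permutation p = 0.35, adjusted p = 0.443, rho = -0.268, permutation p = 0.32, adjusted p = 0.425) the relation did not pass, with r = 0.129 in AN, -0.479 in AI and 0.019 without GS9 and GS32. Between AI F and AI P the difference was above 0 for 16 of its 16 genes (43.7% of all genes tested), with a median log2 difference of 0.98 against -0.04 over all genes. Between AN F and AN P it was above 0 for 2 of 16 (46.2% of all genes tested), with a median of -0.22 against -0.01. None of the 16 passed at an adjusted p in either comparison, and their part in the differences of Id3 and Tdgf1 was not tested.

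The rest of both pathways was read from 79 genes in lists by role, all in the table, of which 71 passed the filter. In each of the 4 comparisons, 0 of the 71 passed limma's adjusted test. The direction of the differences was lopsided. In AN, 19 of the 71 had a log2 difference above 0 (46.2% of all genes tested did), with a median of -0.13, and in AI 63 of 71 (against 43.7%), with a median of 0.28. The pattern of lower in AN F and higher in AI F was held by 49 of the 71 (69%), against 27.8% of all genes tested and 3 of the 9 genes above. Markers of other cell types had like directions. Above 0 in AN and in AI were 2 and 16 of the 16 fibroblast markers, 1 and 7 of 8 tested markers of extraembryonic endoderm, 0 and 4 of 5 of trophoblast and 0 and 5 of 5 of the primitive streak, and their part in the pathway counts was not tested. T, Mixl1, Gsc, Eomes and Foxa2 of these marker lists are also Nodal targets among the 71, so the counts are not separate. Without GS4 and GS9 the AI count of pathway genes was 42 of 71. No chance level is given for these counts, since the genes of a pathway and the lines they share are not independent.

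**Figure D5:**
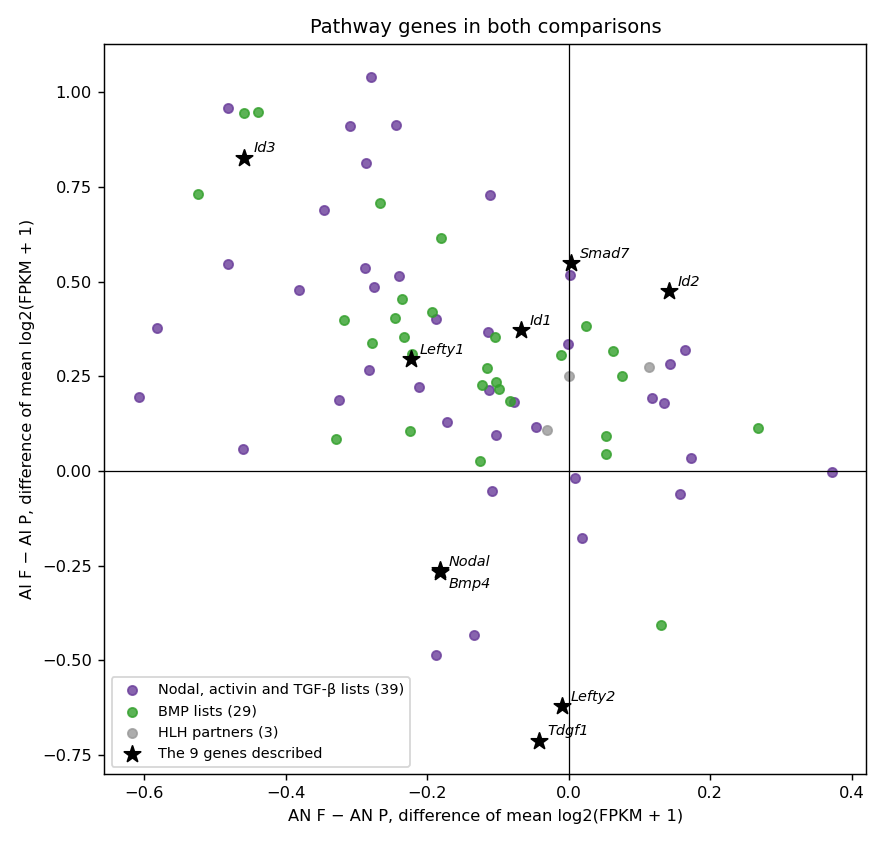
Log2 difference between F and P in AN (x axis) and in AI (y axis) for the 71 pathway genes tested, coloured by branch, and for the 9 genes described (stars). Most pathway genes, 49 of 71, lay in the upper left, below 0 in AN and above 0 in AI, while Tdgf1, Lefty2, Nodal and Bmp4 lay below 0 on both axes.

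Among the ligands of the Nodal, activin and TGF-β branch, Inhba, which encodes the activin A subunit, was highest, with a mean of 58.9 FPKM (range 16.8 to 133.9), above Nodal itself. In the test of the AI effect minus the AN effect, 5 of the 8 ligands had an unadjusted p under 0.05 (Inha, Inhba, Inhbb, Tgfb1 and Tgfb3), all above 0, where 8.3% of all genes were higher at that p, and Inhba differed by 1.44 (unadjusted p = 0.0368). Of the receptors, Tgfbr1 was highest (9.52 FPKM), Acvr1b, the type I receptor for activin and Nodal, had a log2 difference of -0.43 between AI F and AI P (unadjusted p = 0.0173), and Tgfbr2 had an AI effect minus AN effect of 1.16 (unadjusted p = 0.0197). Acvr1c was under the filter. Of the effectors, Foxh1, the DNA-binding partner of SMAD2, was highest (40.02 FPKM). Smad4, the effector shared by both branches, differed by 0.17 between AN F and AN P (unadjusted p = 0.028), and Smad3 by 0.48 in AI minus AN (unadjusted p = 0.0262). Of the 39 genes tested in all lists of this branch, 5.13% had an unadjusted p under 0.05 in AN, near the 6.01% of all genes. In AI the share was 7.69%, near the 7.77% of all genes, and in AI minus AN 25.6%, against 16.6%.

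Furin, a protease that cuts the Nodal precursor, had 9.25 FPKM and a log2 difference of 0.81 between AI F and AI P (unadjusted p = 0.0458), and 1.10 in AI minus AN (unadjusted p = 0.0185). Of the 12 inhibitors, the corepressor gene Tgif1 was highest (73.2 FPKM). The corepressor genes Ski (0.52 in AI, unadjusted p = 0.0361) and Skil (0.37 in AN, unadjusted p = 0.0471) each had a small p in 1 comparison, and Ltbp1 and Smurf1 in AI minus AN, with 1.22 and 0.59. Of the 7 Nodal targets, T, the brachyury gene, ranged furthest, from 5.85 to 257 FPKM (mean 69.0). All 7 were below 0 in AN and above 0 in AI, and none had an unadjusted p under 0.05.

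On the BMP side, Bmp1, a protease despite its name, was the highest of the ligand list (23.9 FPKM). It differed by 0.94 in AI (unadjusted p = 0.0332) and by 1.404 in AI minus AN (unadjusted p = 0.00491), and Gdf6 by -0.22 in AN (unadjusted p = 0.0427), while Bmp5, Bmp8a, Bmp15, Gdf5 and Gdf9 were under the filter. Of the receptors Bmpr1a was highest (15.3 FPKM) and differed by 0.27 in AN (unadjusted p = 0.013), and Acvrl1 by 0.62 in AI (unadjusted p = 0.0392). Smad5 was the highest of the BMP effectors (8.33 FPKM), and Smad9 was under the filter. Of the 9 BMP inhibitors Twsg1 was highest (16.1 FPKM), Grem1 differed by -0.52 in AN (unadjusted p = 0.0442) and Nbl1 by 0.95 in AI (unadjusted p = 0.0481), and Smad6 had an AI effect minus AN effect of 0.59 (unadjusted p = 0.0166). Of the BMP targets Tbx3 was highest (10.2 FPKM), Id4 differed by -0.24 in AN (unadjusted p = 0.0404) and Gata2 by 0.35 in AI (unadjusted p = 0.0136). The partners of the Id proteins were led by Tcf3 (47.1 FPKM), and none of the 3 had an unadjusted p under 0.05 in any comparison. Of the 29 genes tested in the BMP lists, 13.8% had an unadjusted p under 0.05 in AN, against 6.01% of all genes. In AI the share was 13.8%, against 7.77%, and in AI minus AN 31%, against 16.6%.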

How the data were processed

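RNA of 16 lines was sequenced as single reads of 50 bases. The authors mapped the reads to mm9, and the submitters' processing notes name TopHat2 2.1.0, Cufflinks 2.2.1 and HTSeq without their roles. The deposited values are FPKM per gene name and line, used as deposited. Read counts were not analysed here, so depth is unknown and count models and intervals of counting error could not be used. The libraries' normalization and the handling of reads that map to several places are not given in the sources used here.

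Lines were grouped by title, with F and P taken from the study's text by line name. The source entry of GS9 and GS32 names GS4, which conflicts with the titles. FPKM were transformed to log2(FPKM + 1), and 13185 of 22552 genes, those whose mean FPKM reached 0.5, were fitted with limma 3.58.1 in R 4.3.3 (mean-variance trend, Benjamini-Hochberg adjustment over all genes tested, threshold 0.05). F and P were compared in fits of the 9 AN and of the 7 AI lines, while ntESCs against iPSCs and the interaction used all 16. Fold changes on this scale understate changes of low genes. Cuffdiff, which needs reads, was not run. Exact two-sided permutation tests took p as 2 times the smaller tail. Correlations used 100000 resamples (scipy 1.17.1, Python 3.11.15). Named were the 9 genes, and of each role list the gene with the highest mean FPKM and those with an unadjusted p under 0.05. Some results that this rule covers are not reported here. For likeness, the 2 genes with the highest r with each of the 9 were taken. Tested on simulated data for 13185 genes, 200 changed by a log2 of 1, limma recovered 156 in AN, 130 in AI, 189 between AN and AI and 115 in the interaction. False calls numbered 11, 8, 9 and 6 in the same order. The simulated lines had no variation shared between genes, and the changed genes were drawn at random. These rates may thus be too high for the 9 genes, which varied more than the typical gene of like level. The genes, lists and tests were chosen with earlier results of these data known. Alternatives were another pseudocount (0.1), filter (a mean FPKM of 5, or none), normalization (quantile, median-ratio), no trend, a robust prior, passage or origin as a term, a fit of all lines and each line left out. Leaving out GS4 and GS9 together, counting pathway genes by direction and relating the genes to marker lists were choices made after seeing the data. Coordinates are of the mm9 gene annotation, promoters of RefSeq on GRCm38.p6, and no build was converted to the other.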

Additional observations from a re-analysis of the deposited data

Results flagged for a closer look

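Nodal in AN6 was 38.4 FPKM, the highest of the AN P lines, and stood apart from the other 4, which lay between 22.2 and 23.9 FPKM. AN6 also had the highest mean log2 level of the primitive streak markers (3.40) and of the trophoblast markers (3.603) of the 16 lines. Of the trophoblast list, Elf5 was under 1 FPKM in every line, and Krt18 had the highest mean (81.5 FPKM). Tdgf1 in AI7 was 555 FPKM, the highest of the AI F lines and apart from the other 3, which lay between 506 and 509 FPKM, a gap far smaller than that between AI7 and GS4. Such gaps were looked for in 27 groups, 9 genes in AN F, AN P and AI F, and chance gives about 1 in 20, or 1.35 of 27.

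The AI effect minus the AN effect of Id3 was 1.29 on the log2 scale (exact two-sided permutation test, p = 0.019). It did not pass after adjustment (0.686 over the 36 exact permutation tests, 0.290 in limma over all genes). Without GS4 and GS9, with AI9 alone in AI P, it was 0.68. In AN the F lines were the lower (means 47.4 and 64.7 FPKM) while in AI the F lines were the higher (means 81.4 and 45.2 FPKM). The lowest AI P lines were GS4 and GS9, with 37.1 and 32.5 FPKM, and the fibroblast markers were lowest in the same 2 lines, with mean log2 levels of 4.04 and 3.59.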

How the results depend on the processing

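No paired analysis was possible because the lines carry no shared replicate numbers. Of 801 alternative values of the log2 differences of the 9 genes in the 4 comparisons, 726 kept their direction and their side of the threshold, 73 turned direction and 2 passed the threshold. The 2 were Tdgf1 (-0.99) and Id3 (1.59) in the AI effect minus the AN effect without AI9, and 19 of the 36 differences turned under none of the alternatives. The cause of the turns was not tested.

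Counts of genes passing over all genes were 0 in the 4 comparisons. At an unadjusted p under 0.05 they were 792 for AN F against AN P, 1025 for AI F against AI P, 464 for AN against AI and 2194 for the AI effect minus the AN effect. With each line left out in turn they ranged from 0 to 1 in AN, from 0 to 5 in AI (5 without GS9), from 0 to 1 for AN against AI and from 0 to 651 for the interaction (651 without AI9). Without GS4 and GS9, where AI9 alone stands for AI P and is assumed to vary like the other lines, they were 20 for AI, 8 for AN against AI and 7 for the interaction, and without GS4, GS9 and GS32 they were 9 for AN against AI.

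In AN F against AN P, Lefty2 became 0.0089 with median-ratio scaling, and Smad7 -0.010 with quantile normalization and -0.0067 with passage as a term. With each line left out, Lefty1 ranged from -0.49 to 0.046, Lefty2 from -0.13 to 0.14, Tdgf1 from -0.12 to 0.0067, Smad7 from -0.15 to 0.18 and Id1 from -0.18 to 0.049. In AI F against AI P, Lefty1 became -0.0077 without GS4 and GS9. Leaving out single lines moved the AI difference of Tdgf1 between -1.04 (without AI9) and -0.51 (without GS9), and that of Id3 between 1.13 (without AI9) and 0.58 (without AI10).

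In AN against AI, with passage as a term, Nodal became -0.042, Smad7 0.076, Bmp4 -0.00037 and Id2 -0.19, and Id2 became -0.0095 with quantile normalization. Between AN F and AI F alone, Lefty1 was -0.23, Lefty2 0.095, Tdgf1 0.20 and Id2 -0.16. Between AN P and AI P alone, Nodal was -0.034, Smad7 0.20, Id1 0.17 and Id3 0.54. Without GS4, GS9 and GS32, Lefty1 was -0.13, Tdgf1 0.19 and Id2 -0.11, and without GS4 and GS9 -0.13, 0.19 and -0.096. With each line left out, Nodal ranged from -0.070 to 0.079, Lefty1 from -0.11 to 0.16, Smad7 from -0.28 to 0.045, Bmp4 from -0.024 to 0.20, Id1 from -0.12 to 0.042, Id2 from -0.15 to 0.11 and Id3 from -0.20 to 0.048. In the interaction, Nodal became 0.0044 and Bmp4 0.12 without GS4 and GS9, and with each line left out they ranged from -0.23 to 0.072 and from -0.23 to 0.17.

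Of 36 pairs of genes, 3 passed over all lines and 0 within the 9 AN lines, 0 within the 7 AI lines and 0 without the 2 farthest lines, where fewer lines were tested. Within AI, r turned for Nodal with Lefty1 (-0.37) and Id2 (0.038), Lefty2 with Lefty1 (-0.15) and Id3 (-0.21), and Bmp4 with Id1 (-0.27) and Id3 (-0.25). Within AN it turned for Lefty1 with Tdgf1 (0.015) and Bmp4 (0.40), Bmp4 with Tdgf1 (-0.28), Smad7 (0.12) and Id2 (-0.073), Smad7 with Id1 (-0.24) and Id2 (0.13), and Id2 with Id3 (-0.16). Without the 2 farthest lines it turned for Id2 with Nodal (0.0083), Lefty1 (0.043), Lefty2 (0.0056), Smad7 (0.041) and Id3 (-0.22), and for Lefty1 with Bmp4 (0.27). Of the 71 pathway genes, those above 0 between AN and AI numbered 32 (51.6% of all genes tested were above 0), but 13 between AN F and AI F alone, 61 between AN P and AI P alone, 13 without GS4, GS9 and GS32, 12 without GS4 and GS9 and 50 without AI9. The share of all genes above 0 was not counted in these other settings. The number of lines and the unknown depth limit what these values can show.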

Other observations

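Some of the genes also moved with markers of early lineages. Nodal was higher in lines with a higher mean log2 level of 6 primitive streak markers (r = 0.786, permutation p = 0.0003, adjusted p = 0.0047 over 63 relations, rho = 0.671, permutation p = 0.00562, adjusted p = 0.0443), with r = 0.881 within AN, 0.705 within AI and 0.627 without AN6 and AI10. T, Mixl1, Gsc and Eomes of the streak list are also among the Nodal targets listed above. Nodal was likewise higher with 6 trophoblast markers, a list that shares Eomes with the streak list (r = 0.841, permutation p = 8e-05, adjusted p = 0.00168, rho = 0.721, permutation p = 0.00212, adjusted p = 0.029), with r = 0.915 within AN, 0.761 within AI and 0.687 without AN6 and AI10. In the trophoblast list Elf5 was under 1 FPKM in every line of every group. Hand1 had a mean of 0.63 FPKM, Cdx2 2.16, Krt7 3.91, Eomes 8.22 and Krt18 81.5. Id3 was higher with 12 markers of extraembryonic endoderm (r = 0.889, permutation p = 2e-05, adjusted p = 0.00126, rho = 0.894, permutation p = 4e-05, adjusted p = 0.00252), with r = 0.882 within AN, 0.916 within AI and 0.845 without AI10 and GS9. In that list Sox7, Afp and Ttr were under 1 FPKM in every line of every group. Sox17, Gata4 and Gata6 had means of 0.30, 0.94 and 0.95 FPKM. Pdgfra, Lama1, Foxa2 and Dab2 had means of 1.47, 2.35, 2.63 and 3.69 FPKM. Lamb1 and Col4a1 had the highest means, 46.1 and 44.2 FPKM. The smallest permutation p possible was 2e-05.

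Of the 63 relations between the 9 genes and 7 marker lists, 8 passed at an adjusted p under 0.05 by both r and rho. In AI F against AI P, 0 of 9 pluripotency markers, 4 of 6 markers of the primed state, 7 of 8 of extraembryonic endoderm, 4 of 5 of trophoblast, 5 of 5 of the primitive streak and 3 of 4 of neural cells had a log2 difference above 0, against 43.7% of all genes tested. In AN F against AN P these counts were 8 of 9, 2 of 6, 1 of 8, 0 of 5, 0 of 5 and 1 of 4, against 46.2%. In both comparisons no gene of these lists passed limma's adjusted test. The mean log2 level of the pluripotency markers was highest in GS4 (6.91) and GS9 (6.72), while AI9 (6.31) lay within AI F (5.79 to 6.51). That of extraembryonic endoderm was lowest in GS4 (1.47) and GS9 (1.34), and AI9 (1.80) again lay within AI F (1.70 to 1.99). For the primed, trophoblast and primitive streak lists GS9 lay within AI F, and for the neural list all AI P lines lay below it.

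The gene with the most similar pattern over the 16 lines was Ucma for Nodal (r = 0.90), Npepl1 for Lefty1 (0.90), Pgk1 for Lefty2 (0.89), Cfdp1 for Tdgf1 (0.93), Snx30 for Smad7 (0.97), Rell1 for Bmp4 (0.89), Lor for Id1 (0.91), Tada2b for Id2 (0.89) and Zfp503 for Id3 (0.95). The next were Uhrf2, Ephb4, Tmco6, Ybx1, Dcaf7, Ebp, Faf2, Lmo4 and Dusp5, in the same order. Among the 13184 other genes tested, Id3 was in place 5 by likeness to Id1, and Lefty2 in place 380 by likeness to Nodal. These are descriptions, picked from many genes over lines that share depth and cell makeup.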
